A study of Mus musculus with 6 samples.

Results

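The genes described here build the doublet microtubules of the sperm tail and the link between them. They are the 5 tektin genes Tekt1, Tekt2, Tekt3, Tekt4 and Tekt5, the nexin-dynein regulatory complex (N-DRC) genes Drc1, Drc7 and Gas8, and the ruler genes Ccdc39 and Ccdc40. They were chosen by name, through their Ensembl identifiers in GENCODE release M21 (GRCm38, which also gives the gene positions below), and make up 10 of the 51826 genes counted in each library. RNA was measured by bulk sequencing in the whole testis of mice of the C57BL/6J strain at 8 weeks of age, with 3 KIFC1 knockout libraries (KO) and 3 wild-type libraries (WT). The labels do not say how the knockout allele was made, or whether the libraries of a group came from separate animals. The p-values therefore measure the spread between these libraries, which may be technical.

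The axoneme, the motor of the sperm tail, is a ring of doublet microtubules joined to their neighbours. Tektins are filament-forming proteins that bind to the inner wall of the doublets and stiffen them. The N-DRC bridges neighbouring doublets and controls the dynein arms, and the coiled-coil proteins CCDC39 and CCDC40 lie along the doublet as a ruler that sets where the N-DRC and the inner dynein arms repeat. In the testis their mRNAs are known from meiotic and postmeiotic germ cells, and outside it from cells with motile cilia.

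Several facts of the series bear on these genes. Libraries held 29274603 to 38703606 counts, and the 10 genes had 2604 to 16404 counts in each. Levels are given as CPM, counts divided by the library's total after TMM scaling. Kifc1 itself had 0.326, 0.737 and 0.282 CPM in KO, against 15.5, 16.1 and 14.7 CPM in WT. Mitochondrial genes took 5.74%, 1.54% and 4.29% of the counts in KO libraries 1, 2 and 3, against 0.661% to 0.935% in WT. The KO libraries leaned towards AT-rich genes and the WT libraries towards GC-rich ones, with Spearman rho between GC content and the deviation from the mean library of -0.281, -0.677 and -0.128 in KO, against 0.269, 0.533 and 0.526 in WT, over 12751 genes. Fold changes of the 10 genes, the shares of Tekt3 and Tekt4 and the ratios below are therefore also given with every library's trends with exon GC content and exon length removed, while levels are not corrected unless stated. Summed elongating spermatid markers (8 genes) ran from 16933 to 26263 CPM in KO and from 21616 to 23396 CPM in WT, with its members moving in opposite directions. Smcp rose, with 7584, 2206 and 9260 CPM in KO, against 1549, 1934 and 1861 CPM in WT, while Prm1 and Tnp2 fell (edgeR log2 fold changes of 1.83, -0.66 and -0.63). Without Smcp the sum of the other 7 was 14757, 14727 and 17002 CPM in KO, against 21846, 19682 and 20894 CPM in WT. It was lower in every KO library, but it is not corrected for the trends. Smcp was left out after its rise had been seen. Oaz3 and Akap4 did not fall (edgeR log2 fold changes of 0.07 and 0.15). After correction for the trends Prm1 had -0.39, Prm2 -0.32, Tnp1 -0.41 and Tnp2 -0.18. Odf1 then had -0.09, Oaz3 -0.07, Akap4 0.03 and Smcp 1.85. The median of all 8 went from -0.37 to -0.13. Summed round spermatid markers (6 genes) ran from 863 to 1173 CPM in KO and from 809 to 952 CPM in WT. Among them Acrv1, Izumo1 and Spaca7 were higher and Tssk1 lower in every KO library. Their edgeR log2 fold changes were 0.50, 0.50, 0.95 and -0.58, in that order. With the trends removed they were 0.29, 0.85, 0.94 and -0.37. The median of all 6 was 0.50, or 0.57 with the trends removed. Summed pachytene spermatocyte markers (6 genes) ran from 875 to 909 CPM in KO and from 878 to 932 CPM in WT. Among these Sycp1 and Hormad1 were higher and Pou5f2 lower in every KO library. Their edgeR log2 fold changes were 0.90, 0.53 and -0.92, or 0.16, -0.06 and -0.69 with the trends removed. The median of these 6 was 0.17, or -0.02 with the trends removed. Of 7 multiciliated cell markers, Mcidas, Gmnc and Sntn had 0 to 6 counts in any library. Ccno (2.64 to 4.29 CPM in KO, 4.44 to 6.40 CPM in WT) and Cdc20b (3.02 to 3.88 CPM in KO, 3.45 to 3.84 CPM in WT) were detected. Foxj1 (73.6 to 164 CPM in KO, 166 to 170 CPM in WT) and Deup1 (200.4 to 282 CPM in KO, 199 to 207 CPM in WT) were well above the others. Ccno and Foxj1 were lower in every KO library (edgeR log2 fold changes of -0.60 and -0.47, or -0.22 and 0.02 with the trends removed). Of 5 epididymis markers, 4 had 0 counts in every library. Summed Sertoli cell markers (7 genes) ran from 1007 to 1576 CPM in KO and from 721 to 1051 CPM in WT, and Leydig cell markers (6 genes) from 1102 to 1682 CPM in KO and from 607 to 1357 CPM in WT. The part of these cell types in the results below was not tested.

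Promoter sequence was compared among the members because genes of motile cilia are known to be controlled by RFX transcription factors, which bind an inverted repeat called the X-box. RefSeq promoter windows (GRCm38.p6, the bases around each annotated start site, most of them ahead of it) were found for all 10 members, in 13 windows. The letters GTTGCC, an arm of the X-box, were searched on both strands and lay in the windows of 5 of the 10 members (Tekt1, Tekt2, Tekt4, Drc1 and Gas8), against 14.1% of all 27025 genes with a window. The fuller inverted repeat GTTGCNNNGCAAC lay in the windows of 2 members, Tekt2 and Tekt4, against 0.252% of all genes. The letters TGACGTCA, the element bound by CREM and CREB factors, lay in the windows of 0 members, against 2.03% of all genes. The motifs were chosen after these windows had been seen, an arm can lie inside the repeat, and a match is a description of the letters only. The stretches below end at or before the last base ahead of the start site and show the matches of either form in capitals, 5′ to 3′.
Tekt1, chr11:72361883-72361921, minus strand: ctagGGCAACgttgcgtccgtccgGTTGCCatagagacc
Tekt2, chr4:126325689-126325734, minus strand: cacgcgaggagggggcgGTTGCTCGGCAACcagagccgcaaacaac
Tekt4, chr17:25471530-25471589, plus strand: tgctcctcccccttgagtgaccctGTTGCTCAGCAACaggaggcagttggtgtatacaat
Drc1, chr5:30281358-30281392, plus strand: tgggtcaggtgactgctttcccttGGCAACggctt
Gas8, chr8:123518757-123518810, plus strand: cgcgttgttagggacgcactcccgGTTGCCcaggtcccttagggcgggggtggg
In Tekt2 and Tekt4 the repeat lay at positions -29 to -17 and -36 to -24 from the start site, and Tekt1 held an arm in each orientation, at -35 to -30 and -15 to -10. Scaled for exon length, the members with a match did not all stand above those without. In WT the tektins with a match, Tekt1, Tekt2 and Tekt4, averaged 243, 217 and 203 CPM per kb. Tekt3 and Tekt5, which had none, averaged 140 and 126 CPM per kb there. In KO, Tekt3 (165 CPM per kb) was not below Tekt4 (162 CPM per kb), and Gas8 had matches and stood among the lowest in both genotypes. A link between a match and the level was not tested.

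Scaled for exon length, the 10 mRNAs formed 3 tiers that kept their place in both genotypes. The tektins were highest, with group means of 130 to 255 CPM per kb in KO and 126 to 243 CPM per kb in WT. Drc1 averaged 68.4 ± 5.82 CPM per kb in KO and 69.3 ± 6.20 CPM per kb in WT (SD, n = 3 each), and Drc7 averaged 48.7 ± 8.17 CPM per kb in KO and 49.6 ± 3.53 CPM per kb in WT. Gas8, Ccdc40 and Ccdc39 were lowest, at 26.2, 24.5 and 23.5 CPM per kb in KO and at 21.5, 25.5 and 15.6 CPM per kb in WT. The tiers did not overlap in any library, and neither did Drc1 and Drc7 within a genotype. Within the tiers several neighbours could not be ranked: Tekt2 with Tekt3, Tekt3 with Tekt4, Tekt4 with Tekt5, Gas8 with Ccdc40 and Ccdc40 with Ccdc39 overlapped in KO, and Tekt1 with Tekt2, Tekt2 with Tekt4 and Tekt3 with Tekt5 overlapped in WT. Lengths are those of all annotated exons joined, which for Ccdc39 came to 7.443 kb around a longest coding sequence of 2811 bases, so the per-kb level of a gene with long or rarely used exons is understated.

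**Figure D1:**
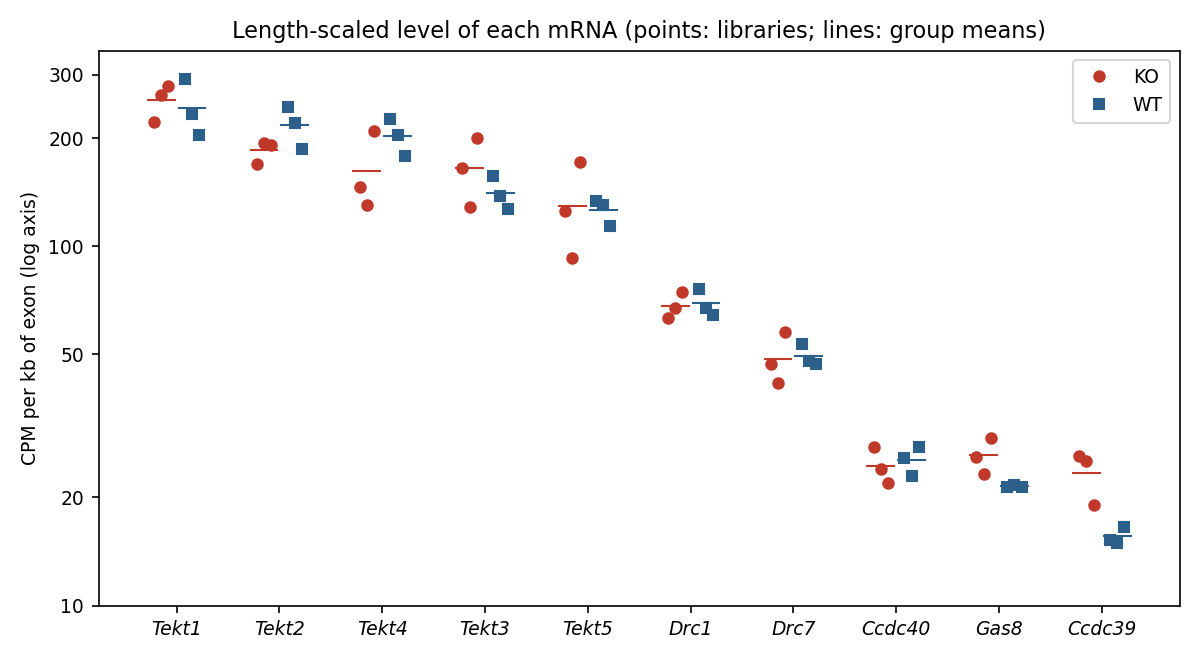
Length-scaled level of each of the 10 mRNAs in CPM per kb of exon on a log axis, with circles for the 3 KO libraries, squares for the 3 WT libraries and lines for group means. The tektins lie above 90 CPM per kb in every library, Drc1 and Drc7 between 41.5 and 76.2, and Ccdc40, Gas8 and Ccdc39 below 30, with the KO points of Gas8 and Ccdc39 above their WT points.

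None of the 10 genes was called different between genotypes by edgeR's quasi-likelihood test at a Benjamini-Hochberg adjusted p under 0.05. Across all 21518 genes tested, 8.23% were called, 3.11% higher and 5.12% lower in KO. At an unadjusted p under 0.05 there was 1 gene, Ccdc39, against 27.1% of all genes. It was also the 1 gene called by DESeq2, which called 15.3% of all genes. The KO and WT libraries did not overlap for 2 of the 10 genes, Ccdc39 and Gas8, against 32.7% of all genes. The median log2 fold change (KO over WT) of the 10 genes was 0.01, beside -0.01 for all genes tested. In these bulk values fewer cells of a type and less RNA per cell cannot be told apart.

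**Figure D2:**
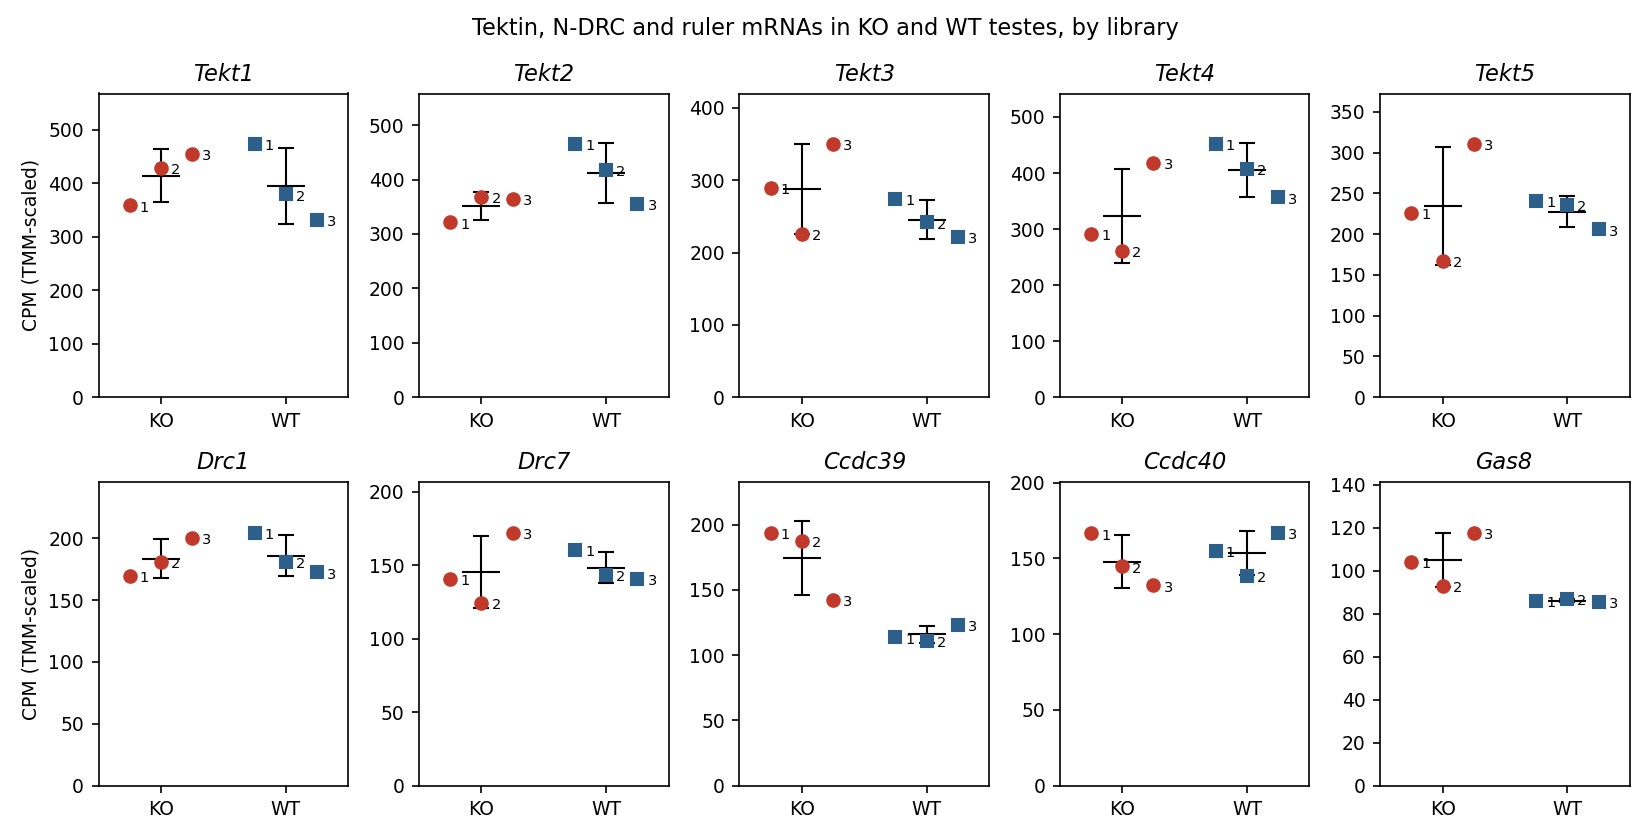
CPM of each of the 10 mRNAs by library, KO as circles and WT as squares, each numbered by library, with group mean and SD as black bars and every axis starting at 0. For 8 genes the KO and WT points overlap, while all KO points lie above all WT points for Ccdc39 and Gas8.

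Tekt1 (ENSMUSG00000020799, chr11:72344722-72362442, minus strand), which encodes a tektin of cilia and sperm tails, had 359, 429 and 454 CPM in KO libraries 1, 2 and 3, against 473, 379 and 332 CPM in WT. The groups overlapped fully, with a WT library both highest and lowest. The log2 fold change was 0.07 (SE 0.17, 95% interval -0.32 to 0.46, edgeR adjusted p = 0.834). Tekt2 (ENSMUSG00000028845, chr4:126322121-126325688, minus strand), which is needed in mice for sperm motility and for the inner dynein arms, had 321, 368 and 364 CPM in KO, against 465, 417 and 355 CPM in WT. WT libraries 1 and 2 were the highest and WT library 3 lay among the KO values, and the log2 fold change was -0.23 (SE 0.15, 95% interval -0.57 to 0.11, edgeR adjusted p = 0.358).

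Tekt3 (ENSMUSG00000042189, chr11:63061654-63094964, plus strand), whose loss in mice lowers progressive sperm motility, had 289.5, 225 and 349.8 CPM in KO, against 274, 242 and 221 CPM in WT. KO libraries 1 and 3 were above every WT library and KO library 2 was not, and the log2 fold change was 0.23 (SE 0.18, 95% interval -0.18 to 0.65, edgeR adjusted p = 0.454). Tekt4 (ENSMUSG00000024175, chr17:25454615-25476602, plus strand), which is needed in mice for coordinated beating of the sperm tail, had 292, 260.4 and 419 CPM in KO, against 452, 407 and 356 CPM in WT. KO library 3 lay within the WT range and the other two below it, with a log2 fold change of -0.32 (SE 0.20, 95% interval -0.77 to 0.13, edgeR adjusted p = 0.329). Tekt5 (ENSMUSG00000039179, chr16:10357948-10395490, minus strand), a tektin of the sperm tail, had 226, 167 and 310.3 CPM in KO, against 241, 236 and 206 CPM in WT. Its KO libraries spread more widely than its WT libraries and enclosed them, and the log2 fold change was 0.04 (SE 0.22, 95% interval -0.45 to 0.53, edgeR adjusted p = 0.921). In Tekt3, Tekt4 and Tekt5, as in Drc7 and Gas8 below, KO library 2 was the lowest and KO library 3 the highest KO library. KO library 2 also had the lowest mitochondrial share of the KO libraries and the strongest lean towards AT-rich genes, and the part of these in the order was not tested.

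The summed level of the 5 tektins was 827, 810 and 1053 CPM per kb in KO, against 1052, 926 and 811 CPM per kb in WT, and so overlapped almost completely. The make-up of this sum varied more between libraries in KO than in WT for every tektin, with SDs of 1.91 to 3.44 percentage points in KO and 0.311 to 1.42 in WT (n = 3 each). Tekt4 held 17.7%, 16.1% and 19.9% of it in KO, against 21.5%, 22.03% and 22.02% in WT, and Tekt3 held 20.03%, 15.9% and 19.0% in KO, against 14.9%, 14.9% and 15.6% in WT. Both shares were apart between the genotypes, lower in KO for Tekt4 and higher in KO for Tekt3, while those of Tekt1, Tekt2 and Tekt5 overlapped. As parts of the same sum, the shares are not independent of each other. With the trends removed, the Tekt4 share was 17.9%, 18.7% and 20.1% in KO, against 21.4%, 20.6% and 20.2% in WT, which are still apart by a narrow margin. The Tekt3 share was then 19.8%, 14.4% and 18.8% in KO, against 15.03%, 15.7% and 16.7% in WT, which overlap. Tekt3 and Tekt4 have an exon GC content of 50.9% and 58.1%.

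**Figure D3:**
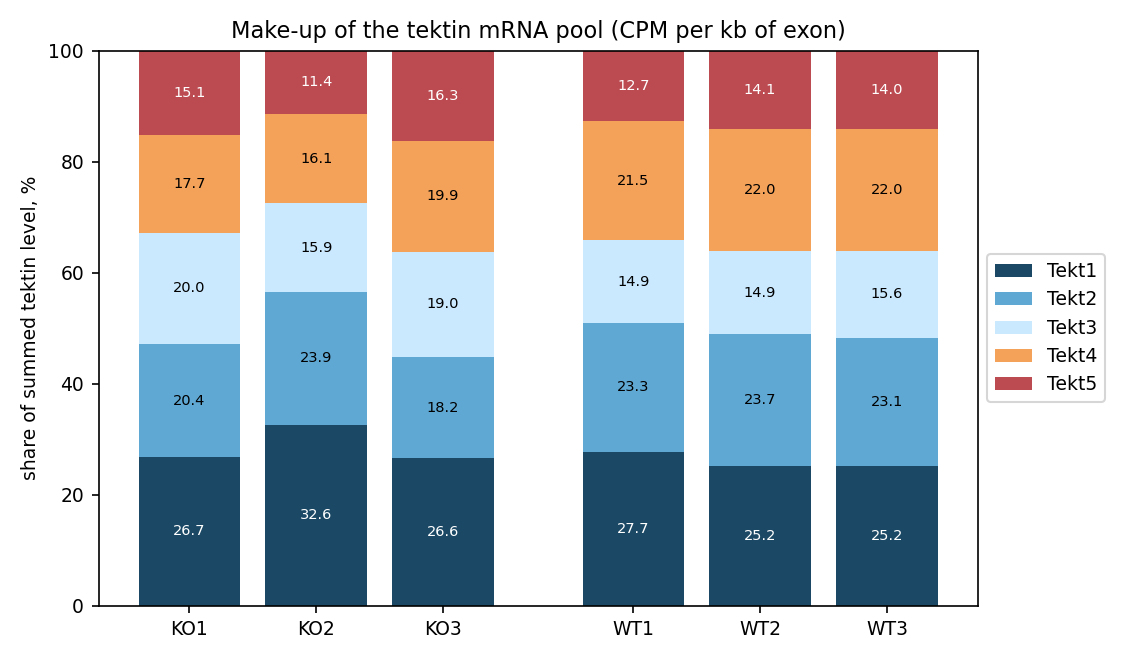
Stacked bars of the share of each tektin in the summed tektin level (CPM per kb of exon, in percent) in KO libraries 1 to 3 and WT libraries 1 to 3, with no correction for GC content. The Tekt4 segment is 16.1% to 19.9% in KO and 21.5% to 22.03% in WT, and every tektin's share varies more among the KO bars than among the WT bars.

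The ratio of Tekt1 to Tekt2 was taken because both are general tektins of cilia and sperm tails and a ratio within a library does not depend on scaling between libraries. Its log2 value, per exon length, was 0.39, 0.45 and 0.55 in KO, against 0.25, 0.09 and 0.13 in WT, so all KO values were above all WT values. The difference was 0.30 (two-sided exact permutation test, p = 0.1, 0.1 adjusted over 3 ratios), where 0.1 is the smallest p that 3 libraries against 3 can give. With the trends removed it was 0.11 (exact permutation p = 0.3).

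Among the N-DRC genes, Drc1 (ENSMUSG00000073102, chr5:30281388-30366695, plus strand) encodes a scaffold subunit whose loss in humans causes primary ciliary dyskinesia. It had 169, 181 and 200.2 CPM in KO, against 205, 181 and 172 CPM in WT, with complete overlap and a log2 fold change of -0.02 (SE 0.14, 95% interval -0.34 to 0.30, edgeR adjusted p = 0.947). Drc7 (ENSMUSG00000031786, chr8:95055103-95078141, plus strand), which encodes a linker subunit needed in mice for sperm tail formation, had 140.5, 124 and 172 CPM in KO, against 160.2, 144 and 141 CPM in WT. KO libraries were both the highest and the lowest, as for Tekt5, and the log2 fold change was -0.03 (SE 0.16, 95% interval -0.38 to 0.33, edgeR adjusted p = 0.938).

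Gas8 (ENSMUSG00000040220, chr8:123518834-123536650, plus strand), which encodes the N-DRC subunit DRC4 at the base of the complex, had 104, 93.1 and 118 CPM in KO, against 86.0, 87.1 and 85.6 CPM in WT. All KO libraries stood above the WT libraries, whose SD of 0.905% of their mean was smaller than the counting error of 1.71% to 1.96% that their 2604 to 3422 counts give. The log2 fold change was 0.29 (SE 0.14, 95% interval -0.03 to 0.61, edgeR adjusted p = 0.232). With the trends removed it was 0.53 (SE 0.12, 95% interval 0.26 to 0.80, edgeR unadjusted p = 0.00162, adjusted p = 0.0725), the largest of the 10 genes under that fit. The log2 ratio of Drc1 to Gas8, per exon length, was 1.28, 1.54 and 1.35 in KO, against 1.83, 1.64 and 1.59 in WT. All KO ratios were lower, by -0.30 on average (two-sided exact permutation p = 0.1, the smallest possible, 0.1 adjusted over 3 ratios), and the difference was -0.35 with the trends removed (exact permutation p = 0.1).

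Ccdc39 (ENSMUSG00000027676, chr3:33812362-33844310, minus strand) was the member with the largest difference. It had 194, 188 and 142 CPM in KO, against 114, 111 and 123 CPM in WT, so every KO library was above every WT library. The log2 fold change was 0.59 (SE 0.16, 95% interval 0.23 to 0.95, edgeR unadjusted p = 0.00466, adjusted p = 0.0534), which missed the threshold, while DESeq2 gave 0.62 (SE 0.19, adjusted p = 0.0111). Its partner Ccdc40 (ENSMUSG00000039963, chr11:119228572-119265238, plus strand) had 166, 145 and 132 CPM in KO, against 155, 139 and 167 CPM in WT, with overlap and a log2 fold change of -0.05 (SE 0.15, 95% interval -0.39 to 0.28, edgeR adjusted p = 0.846). The proteins encoded by this pair form 1 heterodimer, and the loss of either in humans causes primary ciliary dyskinesia. The log2 ratio of Ccdc39 to Ccdc40, per exon length, was -0.08, 0.07 and -0.20 in KO, against -0.75, -0.62 and -0.74 in WT. The KO ratios were all higher, by 0.63 on average or 1.55-fold (two-sided exact permutation p = 0.1, the smallest possible, 0.1 adjusted over 3 ratios).

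With the trends removed the log2 fold change of Ccdc39 was close to 0, at 0.07 (SE 0.13, 95% interval -0.22 to 0.36, edgeR adjusted p = 0.774), and the Ccdc39 to Ccdc40 ratio turned to -0.15 (exact permutation p = 0.2). Ccdc39 was the most AT-rich of the 10 genes, at 38.3% GC in its exons, and Ccdc40 had 54.9%. The contrast can be read in 60 coding bases of each transcript with the longest coding sequence (GENCODE M21, GRCm38), taken where the GC content is nearest that of the whole gene, with G and C in capitals.
Ccdc39, chr3:33841124-33841183, minus strand: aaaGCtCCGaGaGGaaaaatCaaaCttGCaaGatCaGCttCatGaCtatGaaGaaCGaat
Ccdc40, chr11:119230625-119230684, plus strand: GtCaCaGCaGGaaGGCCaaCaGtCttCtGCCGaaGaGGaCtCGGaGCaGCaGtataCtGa
Tekt4, chr17:25471728-25471787, plus strand: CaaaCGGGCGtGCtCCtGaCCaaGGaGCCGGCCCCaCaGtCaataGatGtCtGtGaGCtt
Tekt4 is shown as the most GC-rich member, at 58.1%, and it had the lowest fold change of the 10. The Ccdc39 level has a further limit. Its exons share 1256 bases, 16.9% of their length, with Ttc14 on the opposite strand, and whether the counting used strand is not given in the sources used here. Ttc14 had 18.6, 21.7 and 11.5 CPM in KO, against 8.72, 8.22 and 16.0 CPM in WT, and its part in the Ccdc39 value was not tested. Tekt2 shares 396 exon bases with Gm12945 on the opposite strand, which had at most 34 counts in any library.

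**Figure D4:**
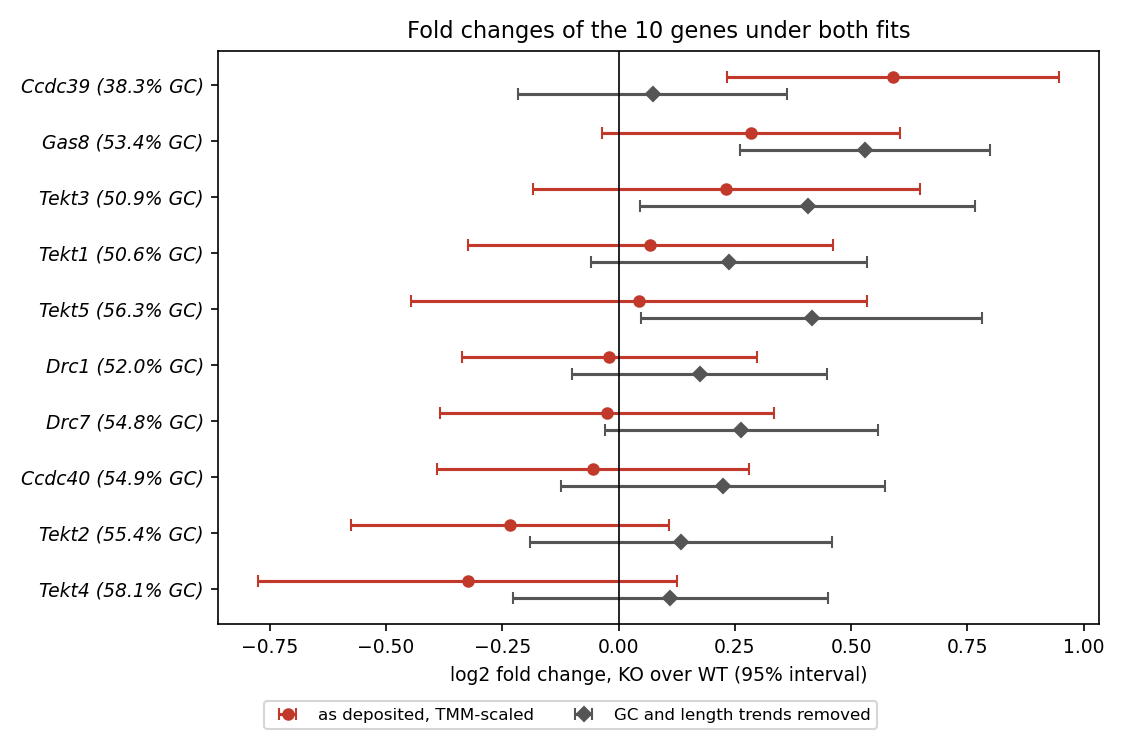
Log2 fold change (KO over WT) of each of the 10 genes with its 95% interval, as deposited with TMM scaling (circles) and with GC and length trends removed (diamonds), with exon GC content beside each name. Ccdc39 moves from 0.59 to 0.07 and Tekt4 from -0.32 to 0.11, and all 10 diamonds lie above 0, with the intervals of Gas8, Tekt3 and Tekt5 clear of it.

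Across the 10 genes the order of the fold changes followed exon GC content, with a Spearman rho of -0.782 between them. This rho and the counts below are descriptions over genes of the same libraries, and such genes are not independent of each other. With the trends removed rho was 0.03, and the removal takes out each library's trend with GC content by design. All 10 log2 fold changes were then above 0, from 0.07 for Ccdc39 to 0.53 for Gas8, with a median of 0.23, beside 0.00 for all genes, of which 50.1% were above 0. The members not yet given so were Tekt1 at 0.24, Tekt2 at 0.13, Tekt4 at 0.11, Drc1 at 0.17, Drc7 at 0.26 and Ccdc40 at 0.22. Tekt3 (0.41, SE 0.16) and Tekt5 (0.42, SE 0.16) had an unadjusted p under 0.05 in that fit besides Gas8, against 22.2% of all genes, and 0 of the 10 were called, where edgeR called 20 of all genes. The corrected levels of KO and WT did not overlap for 4 of the 10, Tekt3, Tekt5, Drc7 and Gas8, against 27.6% of all genes. As deposited, 5 of the 10 were above 0. Under that fit KO library 2 had 240.4 CPM of Tekt3 and 214 CPM of Tekt5, against 228 to 235 CPM and 188 to 203 CPM in the WT libraries.

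**Figure D5:**
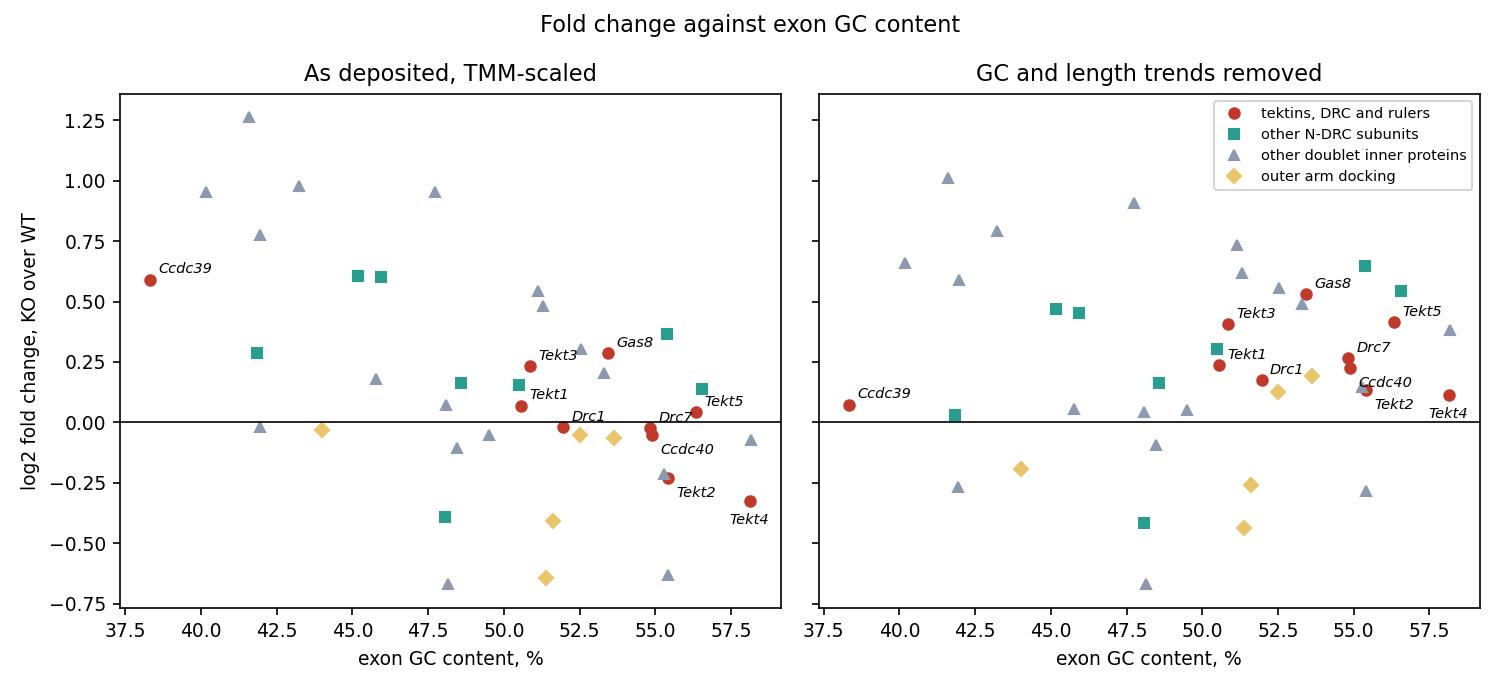
Log2 fold change (KO over WT) against exon GC content in percent, as deposited on the left and with GC and length trends removed on the right, for the 10 named genes and 3 further lists of axoneme genes. On the left the 10 genes run down from Ccdc39 at 38.3% GC to Tekt4 at 58.1%, and on the right they lie between 0.07 and 0.53.

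Other subunits of the same complex were set beside the members. Of 9 further N-DRC genes, 8 were tested. By edgeR 1, Iqcg (DRC9), was called higher and 0 lower, against 3.11% and 5.12% of all genes tested. The median log2 fold change was 0.22 (0.38 with the trends removed). Iqcg, whose protein is needed in mice for sperm tail formation, had 135, 112 and 126 CPM in KO, against 91.2, 78.6 and 76.2 CPM in WT (log2 fold change 0.60, SE 0.15, edgeR adjusted p = 0.0402). Without any one library other than KO library 2 the list had 0 calls, and without KO library 2 it had 3. Over all genes, edgeR called 1 to 425 (at most 1.93%) without any one library other than KO library 2. Without KO library 2 it called 3149 (14.3%). Corrected for the trends, Iqcg was not called (0.45, edgeR adjusted p = 0.121), and 48.1% of the Iqcg exon bases are shared with Lrch3 on the opposite strand (44.8, 35.7 and 35.9 CPM in KO, against 10.1, 14.0 and 39.2 CPM in WT), so its level is uncertain. Fbxl13 (DRC6) had 199, 176 and 255 CPM in KO, against 145, 142 and 127 CPM in WT (0.61, SE 0.17, edgeR adjusted p = 0.0594), and was called higher by DESeq2 (0.63, adjusted p = 0.0189). Its corrected value was 0.47 (edgeR adjusted p = 0.168).

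The remaining subunits were not called. Ccdc65 (DRC2), the partner of DRC1, averaged 339 ± 37.6 CPM in KO and 305 ± 33.8 CPM in WT, a log2 fold change of 0.16. Tcte1 (DRC5) had 579.5, 248 and 610 CPM in KO, against 347, 363 and 406 CPM in WT, so that KO library 2 lay below every WT library and the others above. Drc3 was the only one tested with a negative fold change, with 73.5, 104 and 88.4 CPM in KO, against 135, 109 and 104 CPM in WT (-0.39, SE 0.18, edgeR adjusted p = 0.192). Efcab2 (0.29), Iqcd (0.14) and Iqca (0.16) overlapped between genotypes, and Ccdc153 stayed at or below 0.675 CPM in every library and was not tested. Corrected for the trends, the values were 0.54 for Iqcd (edgeR unadjusted p = 0.00115, adjusted p = 0.0706) and 0.65 for Tcte1. They were 0.30 for Ccdc65, 0.16 for Iqca, 0.03 for Efcab2 and -0.42 for Drc3. In that fit edgeR called 0 of the 8 subunits tested, where it called 20 of all genes. At an unadjusted p under 0.05 (edgeR), 5 of the 8 were higher and 1 lower, against 22.2% of all genes.

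The doublet lumen holds many proteins besides tektins, and of 18 such genes edgeR called 5 higher and 0 lower, against 3.11% and 5.12% of all genes tested. DESeq2 called 7 higher and 1 lower, where it called 15.3% of all genes. Ccdc173 (CFAP210) averaged 112 ± 19.8 CPM in KO and 46.6 ± 7.09 CPM in WT (log2 fold change 1.26, SE 0.18, edgeR adjusted p = 0.0161). Mns1, needed in mice for sperm tail assembly, averaged 508 ± 78.3 CPM in KO and 257 ± 21.7 CPM in WT (0.98, SE 0.16), with 53.0% of its exon bases shared with Tex9 on the opposite strand, which itself rose (0.72, SE 0.16). Cfap53 (0.95, SE 0.17), Enkur (0.78, SE 0.14) and Efhc2 (0.95, SE 0.19) rose as well. After correction for the trends the 5 had log2 fold changes of 1.01 for Ccdc173, 0.79 for Mns1, 0.91 for Cfap53, 0.59 for Enkur and 0.66 for Efhc2. The list had a median of 0.19, or 0.44 with the trends removed. With the trends removed edgeR called 0 of it, where it called 20 of all genes. At an unadjusted p under 0.05 in that fit, 10 were higher and 1 lower, against 22.2% of all genes. With the trends left in, 0 were called without KO library 1, WT library 1 or WT library 2. There were 2 without KO library 3, 3 without WT library 3 and 7 without KO library 2. Over all genes, edgeR called 1 without KO library 1, 5 without WT library 1 and 1 without WT library 2. It called 327 without KO library 3, 425 without WT library 3 and 3149 (14.3%) without KO library 2. Cfap52 lay lower in every KO library, at 103, 162 and 136 CPM in KO, against 252, 199 and 185 CPM in WT, and was called lower by DESeq2 (-0.64, adjusted p = 0.0372) but not by edgeR (-0.67, SE 0.20, adjusted p = 0.0727, and -0.67 with the trends removed). Spag8 also lay lower in every KO library, at 48.9, 36.1 and 61.0 CPM in KO, against 85.2, 70.1 and 71.2 CPM in WT. Its log2 fold change was -0.63 (SE 0.20, edgeR adjusted p = 0.0884), or -0.28 with the trends removed. Cfap52 and Spag8 were picked out after their values were seen, as were Ccdc103 and Ccdc114 below.

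The genes of the other docking site, that of the outer dynein arms, gave no call by edgeR or DESeq2 among 5. Over all genes edgeR called 8.23% and DESeq2 15.3%. At an unadjusted p under 0.05 (edgeR) there were 2, against 27.1% of all genes. The median log2 fold change was -0.07, or -0.19 with the trends removed. Ttc25, the most abundant, averaged 231 ± 6.89 CPM in KO and 240.0 ± 24.8 CPM in WT, followed by Ccdc151 (-0.07) and Armc4 (-0.03). Ccdc103 had 17.7, 28.3 and 22.8 CPM in KO, against 46.9, 30.5 and 30.2 CPM in WT (-0.65, SE 0.24, edgeR adjusted p = 0.125), and Ccdc114 averaged 31.6 ± 2.30 CPM in KO and 42.0 ± 3.98 CPM in WT (-0.41, SE 0.15, edgeR adjusted p = 0.124). For both, all KO libraries lay below all WT libraries, and their values after correction for the trends were -0.44 for Ccdc103 and -0.26 for Ccdc114. Whether the lists differ from each other in their response was not tested.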

How the data were processed

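Per the submitters' processing notes, reads were handled with Trimmomatic, HISAT2 and HTSeq on mm10. For the annotation, the strand setting, multi-mapped reads and tool versions the sources used here give nothing. The deposited files hold raw counts per Ensembl gene that the authors had not normalized. GENCODE M21 (GRCm38) gave symbols, joined exon lengths and GC content for 51633 of 51826 identifiers. The genes, lists and tests were chosen with earlier results of these data known.

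Genes passing filterByExpr were tested across the whole table with edgeR 4.0.16 (R 4.3.3, quasi-likelihood, TMM scaling, all 6 libraries, Benjamini-Hochberg over all genes). SE and 95% intervals come from the fold change and F statistic. Named were all members and N-DRC subunits, plus the called and the 3 most abundant genes of the other lists. Some genes this rule names are not reported here. Trends were removed with offsets from splines (5 degrees of freedom) on GC content and log2 exon length, fitted on 12705 genes. The other settings were size factors, filters, DESeq2 1.42.0, a replicate block, no mitochondrial genes and each library left out. The edgeR step was first tested on simulated counts.

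Intervals of fold changes cover the spread between libraries.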

Additional observations from a re-analysis of the deposited data

How the results depend on the processing

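Of the 10 genes, 0 were called in 13 of 16 alternatives, and Ccdc39 alone was called with DESeq2 size factors (1 gene, edgeR adjusted p = 0.0487), a 1 CPM minimum in 3 samples (1 gene, 0.0446) and the DESeq2 Wald test (1 gene, 0.0111), settings that called 7.59%, 11.7% and 15.3% of all genes. Its adjusted p ran up to 0.876 over the alternatives. Tekt3, Ccdc39 and Gas8 stayed above 0 in all 16. The other 7 turned sign under at least 1 alternative, without a call. With GC trends, GC and length trends, and both with the replicate block, log2 fold changes were 0.094, 0.13 and 0.13 for Tekt2, 0.081, 0.11 and 0.11 for Tekt4, 0.16, 0.17 and 0.17 for Drc1, 0.26, 0.26 and 0.26 for Drc7, and 0.25, 0.22 and 0.22 for Ccdc40. DESeq2 size factors and the DESeq2 test gave 0.0059 and 0.0059 for Drc1 and 0.0013 and 0.0013 for Drc7, and library size alone gave -0.00033 for Tekt5. With each library left out, values ran from -0.043 to 0.24 for Tekt1, -0.19 to 0.24 for Tekt5, -0.073 to 0.078 for Drc1, -0.14 to 0.078 for Drc7 and -0.15 to 0.038 for Ccdc40. The Ccdc39 to Ccdc40 ratio turned to -0.15 with GC and length trends removed.

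The other N-DRC list had 2 calls with library size alone, with the 1 CPM filter and with DESeq2, 0 with no expression filter, the replicate block, GC trends removed, GC and length trends removed, or these with the block, and 0 to 3 with a library left out. The list of 18 doublet proteins had 8 calls with DESeq2, 0 with the replicate block, with either removal of trends and with the block and trends together, and 0 to 7 with a library left out. Over all genes, 7.29% were called with library size alone, 11.7% with the 1 CPM filter, 15.3% with DESeq2 and 2.91% with no expression filter. With the replicate block edgeR called 21, with GC trends removed 10, and with GC and length trends removed 20. It called 5 with these and the block, and 1 to 3149 with a library left out. The causes were not tested. Libraries of the same replicate number share only that number, with correlations of their deviations from the group means of -0.475, -0.119 and -0.141. The block changed no call among the 10 genes, and the sign-flip test of each ratio with the block gave p = 0.25 (exact), the smallest that 3 pairs allow. The 10 genes had at least 2604 counts in every library.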
